A study of Gallus gallus with 6 samples.

Results

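Of the 17780 loci measured in the eyelids of 6 Lindian chickens, 56 were higher in every bird with black eyelids than in any bird with light-yellow eyelids, by a mean difference of at least 0.8 on the log2 scale. The members were chosen from the values themselves. A locus was taken when its mean over the 6 libraries was at least 1 FPKM (fragments per kilobase of locus and relative to library size), when its lowest black-eyelid value lay above its highest light-yellow value, and when the mean of log2(FPKM + 1) over the black-eyelid birds exceeded that over the light-yellow birds by 0.8 or more. The difference between the colours is therefore a description of these birds and is not tested. Of the 56 loci, 40 carried Ensembl chicken identifiers and 16 carried identifiers of another kind, called non-Ensembl loci here.

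The tissue was whole eyelid from birds of the Lindian breed, killed 30 weeks after hatching, 3 with black and 3 with light-yellow eyelids. Each bird gave 1 library from total RNA, so the replicates are separate birds, and no other difference between the groups is given by the labels. The study set out to find which transcripts go with eyelid pigmentation. The read total behind each library, recovered from the steps between FPKM values, was between 17116783 and 20621850.

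Dark skin and feather colour in birds comes from melanin, a pigment that melanocytes make from tyrosine in organelles called melanosomes and pass on to the surrounding skin cells. Tyrosinase and its related proteins carry out the synthesis, and the transcription factor MITF and the receptor MC1R are among its best known regulators. Yellow tones in chicken skin come largely from dietary carotenoids, which are taken up and broken down by a separate set of proteins. The deposited table pairs no identifier with a gene name, and the RefSeq gene table used here (assembly GRCg7b) lists no Ensembl identifier for any of its 25635 entries. None of the 56 loci can therefore be tied to these pathways or to a cell type here, and the eyelid label could not be checked against marker genes. The loci are described by their levels, their length and the birds in which they were high, and are numbered by rank, from the largest to the smallest difference between the colours. In tissue of mixed cells, more cells of a type and more RNA per cell cannot be told apart.

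The 56 loci are 0.423% of the 13253 loci that reached a mean of 1 FPKM, called tested loci here. The mirrored rule, with every light-yellow bird above every black-eyelid bird, was met by 39 loci, or 0.294%. Without a minimum difference, 575 loci (4.34%) had no overlap with black-eyelid birds higher, and 287 (2.17%) had none with black-eyelid birds lower. With so few birds, a random order of the birds at each locus would also leave some loci without overlap. Each of these shares is smaller than the share so produced in a given direction. The 575 and the 287 loci are therefore no excess of separated loci. The balance of the directions depended on scaling. After median-of-ratios rescaling the rule was met by 46 loci higher and 49 lower in black-eyelid birds (48.4% higher, against 58.9% as deposited), and 45 of the 46 were among the 56. Without a minimum difference the rescaled counts were 420 higher and 399 lower (51.3%, against 66.7% as deposited). Over the 56 members the median difference was 1.16 on the log2(FPKM + 1) scale, against 0.07 over all tested loci. It ranged from 0.81 to 3.16, and was at least 1 for 36 members and at least 2 for 10. On the linear scale, the mean FPKM in black-eyelid birds was 1.69 to 321.2 times that in light-yellow birds, with a median ratio of 2.94, over the 53 members with a value above 0 in a light-yellow bird. The top of this range, at rank 8, rested on black-eyelid bird 3. Without that bird the ratio was 7.07, from at most 8 reads in any bird. The log2 difference was then 0.52, under the limit of 0.8.

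**Figure D1:**
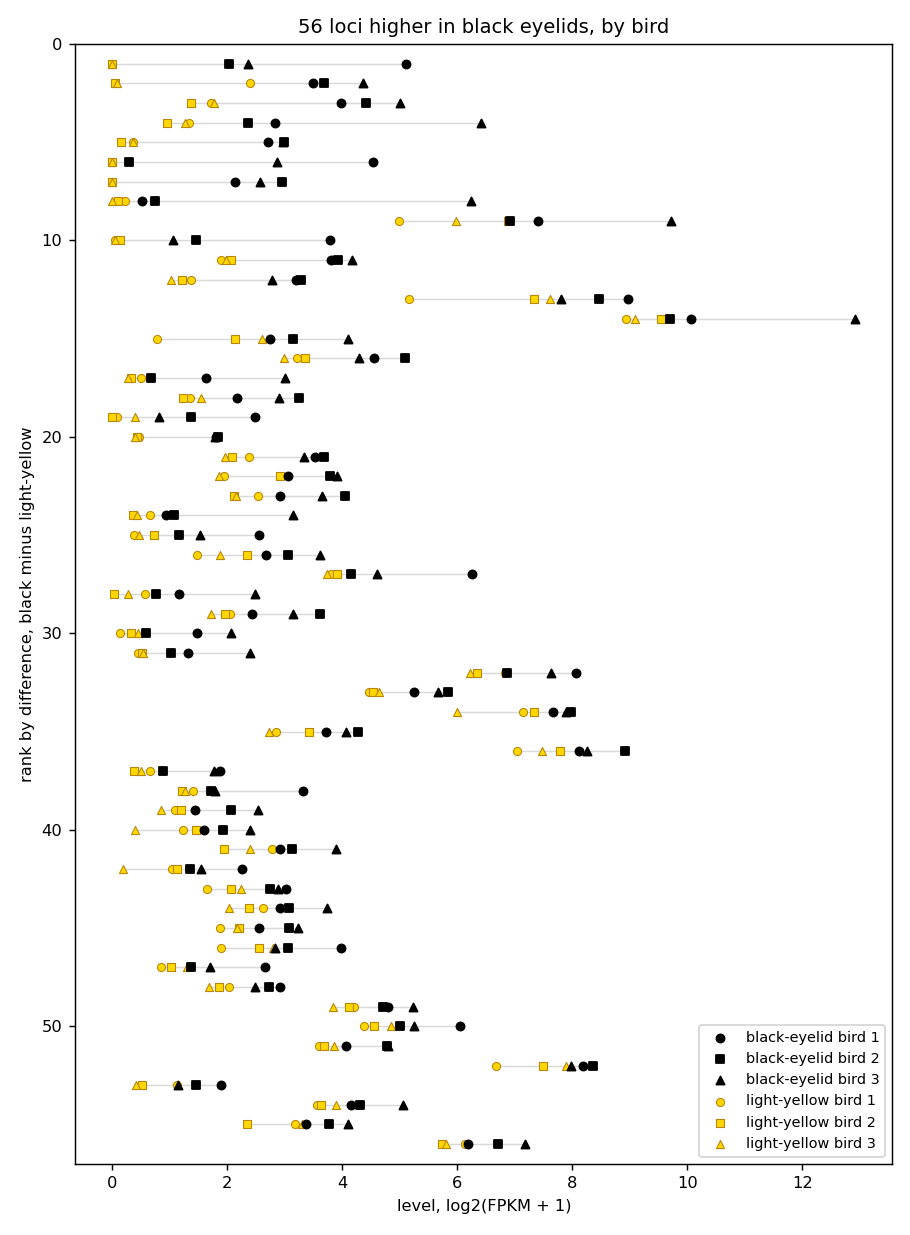
The level of each of the 56 loci in each of the 6 birds, as log2(FPKM + 1) on the horizontal axis, with loci ordered down the page by rank of the difference between the colours. Black symbols are black-eyelid birds and yellow symbols light-yellow birds, and the black symbols lie to the right in every row because the loci were chosen so.

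At the median of the 56 loci, the level was 7.22, 7.59 and 10.18 FPKM in black-eyelid birds 1, 2 and 3 and 2.48, 2.87 and 2.53 FPKM in light-yellow birds 1, 2 and 3. These loci span a wide range of abundance. A mean of 1 to 10 FPKM was found for 37 of them, 10 to 100 FPKM for 12, and 100 FPKM or more for 7. These are 0.665%, 0.174% and 0.887% of the tested loci in the same ranges. The share was smallest in the middle range, and this pattern is descriptive. The mean that sets the range includes the black-eyelid values that chose the loci. Without their highest black-eyelid bird, ranks 4, 8 and 9 had means of 2.82, 0.268 and 99.5 FPKM over the other 5 birds, each below its range.

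On the log2(FPKM + 1) scale, the gap between the lowest black-eyelid and the highest light-yellow bird was widest at 2 loci that are named by identifier here, 1 of each kind. As a ratio of FPKM it was not, since other members had larger ratios than ENSGALG00000014634 or no reads in light-yellow birds. ENSGALG00000014634 (rank 3) stood at 14.8, 20.3 and 31.2 FPKM in black-eyelid birds and at 2.28, 1.58 and 2.41 FPKM in light-yellow birds. Its lowest black-eyelid bird was 6.14 times its highest light-yellow bird, and the mean difference on the log2(FPKM + 1) scale was 2.85 (limma SE 0.29). Novel02050 (rank 5) stood at 5.51, 6.93 and 6.82 FPKM in black-eyelid birds and at 0.29, 0.116 and 0.286 FPKM in light-yellow birds. Its lowest black-eyelid bird was 19.0 times its highest light-yellow bird, and the mean difference on the log2(FPKM + 1) scale was 2.59 (limma SE 0.20). For this locus of low level the pseudocount mattered, since the log2 difference was 3.25 with 0.5 and 4.34 with 0.1 in its place and 4.84 in voom's fit to the reads. The ratio of the mean FPKM was 27.8. In both loci the black-eyelid birds lay close together relative to the distance between the colours. The recovered locus length was 2751 bases for ENSGALG00000014634 and 2519 bases for Novel02050.

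Reads were absent from every light-yellow bird at 3 of the 56 loci, all non-Ensembl. The locus at rank 7, 659 bases long, had 46, 76 and 64 reads in black-eyelid birds (3.38, 6.74 and 4.95 FPKM) and 0 reads in each light-yellow bird. Set against 3 reads per light-yellow bird, the limit that a count of 0 allows, its mean in black-eyelid birds was at least 21.2-fold higher. This bound covers counting error on the light-yellow side only. The black-eyelid mean was taken as measured, here and at ranks 1 and 6. The locus at rank 1, 247 bases long, had 170, 13 and 20 reads in black-eyelid birds (33.4, 3.07 and 4.13 FPKM), again against 0 in each light-yellow bird, and was at least 21.4-fold higher by the same limit. Black-eyelid bird 1 made up most of its level, and without that bird the bound was 5.69-fold. The locus at rank 6, 1339 bases long, had 609, 5 and 165 reads in black-eyelid birds (22.1, 0.218 and 6.28 FPKM) and 0 in each light-yellow bird. Its mean was at least 81.5-fold higher, or at least 27.8-fold without black-eyelid bird 1. Black-eyelid bird 2, with 5 reads, could not be told by counting error alone from 0 reads in light-yellow bird 1. That bird had the smallest read total of its colour, and no interval was computed against the other light-yellow birds. In a further 2 members, at ranks 8 and 19, a single light-yellow bird had 0 reads.

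In 5 members the birds of each colour were within 1.5-fold of each other. At ranks 11, 20 and 21 the step between the colours also exceeded the spread within either. The locus at rank 20 was at 2.48, 2.58 and 2.47 FPKM in black-eyelid birds and at 0.385, 0.353 and 0.314 FPKM in light-yellow birds, from 116 to 134 reads and 16 to 19 reads per bird. The locus at rank 11, a non-Ensembl locus of 3263 bases, was at 13, 14.1 and 16.9 FPKM in black-eyelid birds and at 2.72, 3.17 and 2.93 FPKM in light-yellow birds. Rank 21 was at 10.5, 11.8 and 9.13 FPKM in black-eyelid birds, against 4.21, 3.22 and 2.89 FPKM in light-yellow birds. Ranks 48 and 49 showed smaller differences, 0.85 each on the log2 scale. There the lowest black-eyelid bird was 1.49 and 1.44 times the highest light-yellow bird. The black-eyelid birds themselves spanned 1.42-fold and 1.45-fold, so that step was similar to the spread among them. At rank 49 the values were 26.7, 25.2 and 36.4 FPKM in black-eyelid birds and 17.5, 16.4 and 13.4 FPKM in light-yellow birds. Just above the 1.5-fold limit, the locus at rank 12 was at 8.18, 8.73 and 5.88 FPKM in black-eyelid birds and at 1.59, 1.31 and 1.03 FPKM in light-yellow birds.

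**Figure D2:**
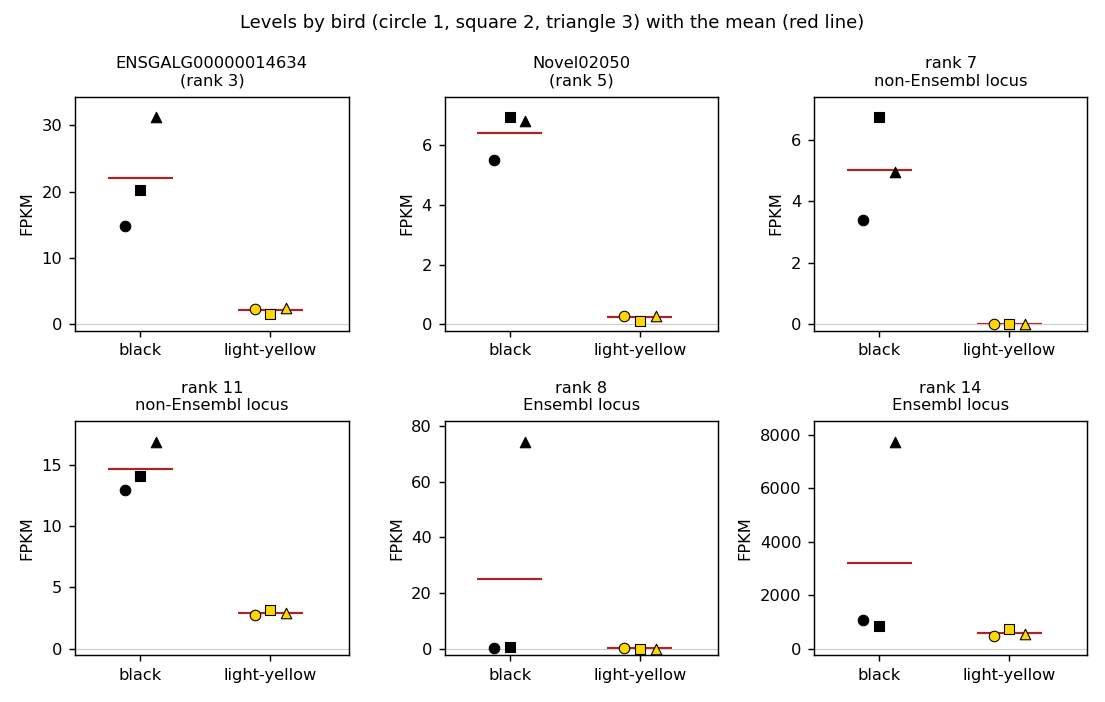
FPKM by bird for 6 of the 56 loci, with black-eyelid birds on the left and light-yellow birds on the right of each panel. Shown are the 4 loci with a limma adjusted p under 0.05, the locus whose top black-eyelid bird most exceeded the next, and the most abundant locus. Circles, squares and triangles are birds 1, 2 and 3 and the red line is the mean of the 3 birds. At ranks 8 and 14 black-eyelid bird 3 stands far above the rest, at 74.4 and 7752.4 FPKM. In the other 4 panels the 3 black-eyelid birds lie nearer to each other, which their choice by limma favours.

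At 12 of the 56 loci (21.4%) a single black-eyelid bird was at 3 times or more the level of the next, against 223 of all tested loci (1.68%). Among the 108 tested loci with a difference of at least 0.8 whose colours overlapped, this was so for 41 (38.0%), so the trait is not particular to the members. In the mirrored set no light-yellow bird stood out in this way at any of the 39 loci. The share of tested loci at which a light-yellow bird did so was not computed, so the 2 colours cannot be compared in this trait. The single high bird was black-eyelid bird 3 at 7 loci, with 3.37 to 109.0 times the next bird, and black-eyelid bird 1 at 5 loci, with 3.25 to 8.09 times the next. It was black-eyelid bird 2 at 0 loci. The most extreme was the locus at rank 8, with 0.425, 0.682 and 74.4 FPKM in black-eyelid birds and 0.164, 0.0712 and 0 FPKM in light-yellow birds. Outside black-eyelid bird 3 it had at most 8 reads, against 1000 in that bird. Rank 4 was at 6.09, 4.15 and 84.4 FPKM in black-eyelid birds and at 1.53, 0.933 and 1.41 FPKM in light-yellow birds. There the other black-eyelid birds were also clear of the light-yellow ones. Black-eyelid bird 1 was the high bird at rank 10, with 12.8, 1.74 and 1.07 FPKM in black-eyelid birds and 0.0357, 0.093 and 0.0327 FPKM in light-yellow birds. It was also the high bird at rank 27, with 75.4, 16.7 and 23.2 FPKM in black-eyelid birds and 12.9, 14.0 and 12.3 FPKM in light-yellow birds. Without their high bird, 2 of the 7 loci and 3 of the 5 loci still had a difference of at least 0.8. Of the 3, the locus at rank 10 then had a mean of 0.595 FPKM over the other 5 birds, under the limit of 1 FPKM. When each colour was summarised by its median bird in place of its mean, the difference was under 0.8 for 16 of the 56 members and the median difference was 1.08.

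The 7 members at 100 FPKM or more all had narrow separations, the lowest black-eyelid bird being less than 1.5 times the highest light-yellow bird in each. The most abundant, at rank 14, was at 1063.0, 831.6 and 7752.4 FPKM in black-eyelid birds and at 490.7, 746.2 and 546.0 FPKM in light-yellow birds. Its separation lay between black-eyelid bird 2 and light-yellow bird 2, which differed by a factor of 1.11. At rank 9 the levels were 167.3, 120.4 and 837.0 FPKM in black-eyelid birds and 30.7, 116.7 and 62.4 FPKM in light-yellow birds, again with black-eyelid bird 3 highest. At rank 13 the order was otherwise, with 502.7, 351.0 and 223.1 FPKM in black-eyelid birds and 34.7, 160.5 and 195.1 FPKM in light-yellow birds, so that light-yellow bird 1 was far below the rest. The locus at rank 36 was at 277.6, 483.0 and 306.4 FPKM in black-eyelid birds, against 131.0, 220.0 and 175.8 FPKM in light-yellow birds. At rank 34 the black-eyelid birds were close together, at 201.2, 252.0 and 236.0 FPKM, against 139.6, 160.8 and 62.6 FPKM in light-yellow birds. Ranks 32 and 52 made up the rest. At rank 32 the lowest black-eyelid bird was at 116.0 FPKM and the highest light-yellow bird at 112.3 FPKM. At rank 52 these values were 250.1 and 237.3 FPKM.

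Summed over the 56 loci, the members held 0.581%, 0.503% and 1.65% of all FPKM in black-eyelid birds 1, 2 and 3, against 0.182%, 0.312% and 0.264% in light-yellow birds 1, 2 and 3. The high value of black-eyelid bird 3 came mostly from the locus at rank 14, which had 136630 reads in that bird. Without that locus the shares were 0.399%, 0.366% and 0.447% in black-eyelid birds, against 0.112%, 0.189% and 0.174% in light-yellow birds. The 3 black-eyelid birds were then close to each other.

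**Figure D3:**
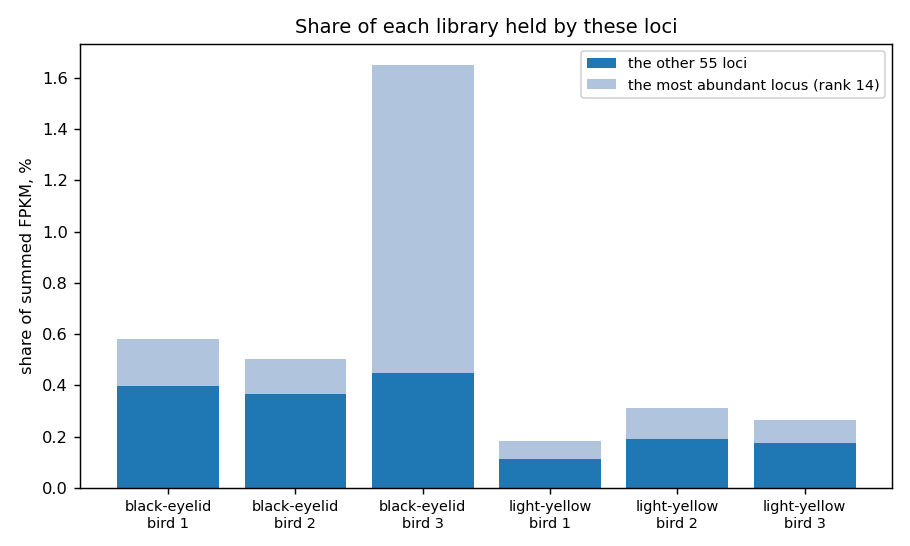
Share of each library's summed FPKM held by the 56 loci, in percent, with the most abundant locus (rank 14) stacked in a lighter colour above the other 55. Black-eyelid bird 3 reaches 1.65% with that locus and 0.447% without it.

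Within the colours, the members varied more among black-eyelid birds. The SD over 3 birds on the log2(FPKM + 1) scale had a median of 0.52 in black-eyelid and 0.21 in light-yellow birds, and was larger in black-eyelid birds at 42 of the 56 loci. Over all tested loci the medians were 0.28 in black-eyelid and 0.27 in light-yellow birds. There the SD was larger in black-eyelid birds at 6815 of the 13253 loci. The log2(FPKM + 1) scale compresses low values, and the coefficient of variation on the linear scale was closer, with a median of 39.6% in black-eyelid and 26.4% in light-yellow birds (53 members). Over all tested loci it was 21.7% in black-eyelid and 21.2% in light-yellow birds. In the mirrored set the median SD on the log2(FPKM + 1) scale was 0.28 in black-eyelid and 0.34 in light-yellow birds. It was larger in black-eyelid birds at 17 of the 39 loci. The median coefficient of variation in the mirrored set was 37.5% in black-eyelid and 27.4% in light-yellow birds. Both sets were thus more variable on the log2 scale in the colour where they were higher, and more variable among black-eyelid birds on the linear scale. Since the same values chose the loci, no test is given. Of the variation within colours at the 56 loci (sum of squared deviations from the colour means), 82.4% lay in black-eyelid birds, with 36.4% in bird 3 alone. Over all tested loci the black-eyelid birds held 55.0%, with 18.7% in bird 3. A sum of squares gives most weight to the few loci with 1 very high or low bird. The SD in black-eyelid birds was 3.24, 2.22 and 2.14 at ranks 8, 4 and 6, against the median of 0.52.

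**Figure D4:**
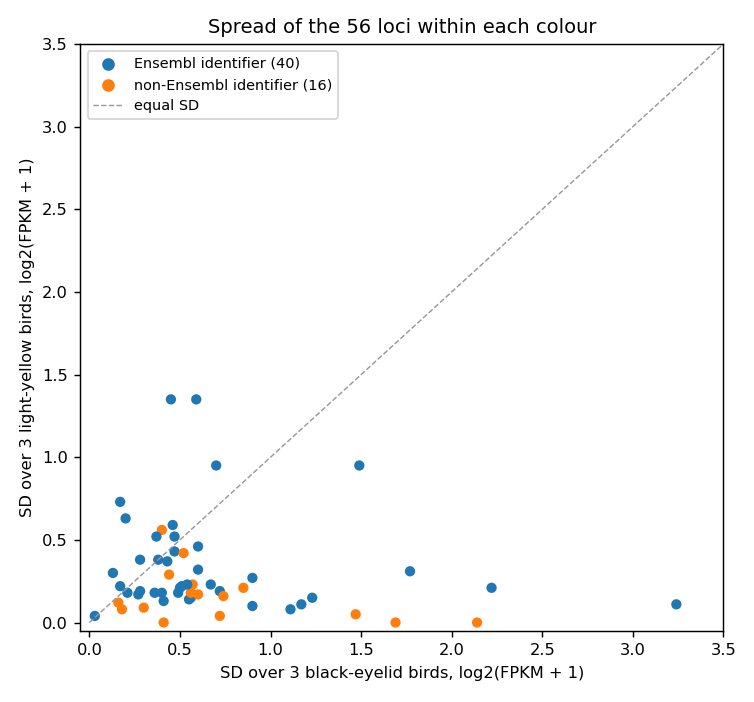
SD of log2(FPKM + 1) over the 3 black-eyelid birds (horizontal) and over the 3 light-yellow birds (vertical) for each of the 56 loci, coloured by kind of identifier. Of the 56 points, 42 lie below the dashed line of equal SD, and the farthest to the right is the locus at rank 8.

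The order of the birds at the members differed from that over all tested loci. Black-eyelid bird 3 was the highest of its colour at 25 of the 56 loci (44.6%), bird 1 at 17 (30.4%) and bird 2 at 14 (25%). Over all tested loci these shares were 29.9%, 40.0% and 30.1% for birds 3, 1 and 2. The lowest black-eyelid bird, which sets the separation, was bird 1 at 26 members, bird 2 at 19 and bird 3 at 11. Among light-yellow birds, bird 1 was highest at 21 of the 53 members with a value above 0 (39.6%), against 26.7% of all tested loci. Light-yellow birds 2 and 3 were each highest at 16 (30.2%), against 34.2% and 39.1% of all tested loci. Among the 108 overlapping loci with a difference of at least 0.8, black-eyelid bird 3 was highest at 67 and black-eyelid bird 1 lowest at 63. Light-yellow bird 1 was highest at 53 of those 108, so this order of the birds is not particular to the members.

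How wide the separation was varied greatly. The gap between the lowest black-eyelid and the highest light-yellow bird had a median of 0.29 on the log2(FPKM + 1) scale and ran from 0.02 to 2.33. It was at least 1 for 9 members, at least 0.5 for 15 and under 0.1 for 8. In linear terms, the lowest black-eyelid bird was at 2 times or more the highest light-yellow bird (or the light-yellow birds were at 0) at 16 loci and at less than 1.5 times at 35. Read numbers limited some wide separations as well as narrow ones. At 25 of the 56 loci the 95% exact interval of the ratio between these 2 birds included 1, so that at this depth their order was not detectable beyond counting error. Rank 8, with few reads in both birds, is among them, at a ratio of 2.59 with an interval of 0.464 to 26.3. At rank 14, with many reads, the ratio of 1.11 had an interval of 1.09 to 1.14. Where every light-yellow bird was at 0, light-yellow bird 1, the smallest library of its colour, was used. Rank 6 is among the 25 on that basis. At 6 members some black-eyelid bird had fewer than 10 reads, the fewest being 5. At 10 members every light-yellow bird had fewer than 10. The rule required the ratio behind each interval to exceed 1, and the intervals take no account of that choice. Intervals and floors cover counting error only, since reads from amplified libraries are not independent molecules. The floors cover it on the light-yellow side alone.

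**Figure D5:**
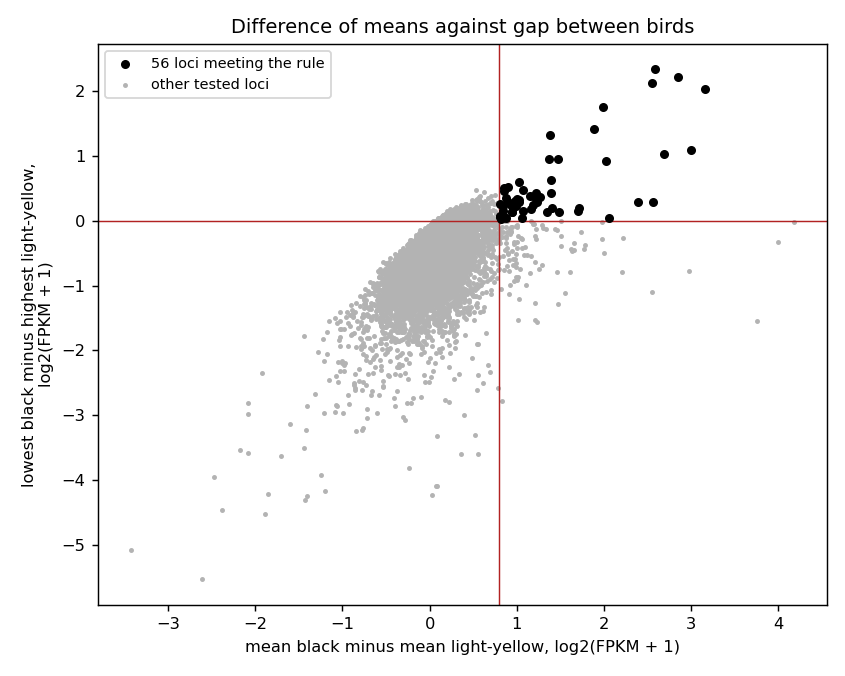
Each tested locus by its mean difference, black minus light-yellow (horizontal), and by the lowest black-eyelid minus the highest light-yellow bird (vertical), both on the log2(FPKM + 1) scale. Red lines mark the limits of the rule, at a difference of 0.8 and a gap of 0, and the 56 members (black) reach a gap of 2.33.

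The limits of the rule fell within a continuous range of values. Just inside the limit on the difference, the locus at rank 56 was at 71.8, 103.0 and 144.5 FPKM in black-eyelid birds and at 68.9, 51.9 and 54.7 FPKM in light-yellow birds, a difference of 0.806. Just outside it, a locus with a difference of 0.784 was at 3.34, 2.43 and 1.84 FPKM in black-eyelid birds and at 0.865, 0.864 and 1.39 FPKM in light-yellow birds. A further 519 loci had no overlap and a smaller difference. In the other direction, 108 of the 164 tested loci with a difference of at least 0.8 (1.24% of tested loci) overlapped between the colours (65.9%). The nearest of these to the limit with reads in several birds was at 5.03, 3.68 and 4.91 FPKM in black-eyelid birds and at 0.318, 3.71 and 1.37 FPKM in light-yellow birds. The narrowest gap among the members was at rank 53, with 2.72, 1.75 and 1.21 FPKM in black-eyelid birds and 1.17, 0.426 and 0.337 FPKM in light-yellow birds. The mean of at least 1 FPKM set aside 4 loci that met both other conditions, the highest with a mean of 0.940 FPKM.

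By kind of identifier, non-Ensembl loci made up 28.6% of the members, 38.5% of the mirrored set and 11.1% of all tested loci. Put otherwise, 1.09% of the 1473 tested non-Ensembl loci and 0.340% of the 11780 tested Ensembl loci met the rule. Their median difference was 1.21 (range 0.90 to 3.16) for the 16 non-Ensembl members and 1.11 (range 0.81 to 3.00) for the 40 Ensembl members. Without knowledge of the strand used in counting, reads of a non-Ensembl locus that overlaps another locus, on either strand, could not be told from that locus's own. The members were shorter at the median than the tested loci, at 1499.5 bases against 2041.5 bases (1300.0 bases in the mirrored set). Loci under 1000 bases made up 33.9% of the members and 19.1% of the tested loci. Lengths ran from 167 to 6677 bases among the members. Within each kind the order was the same. The median was 708.0 bases for non-Ensembl members, against 1047.0 bases for tested non-Ensembl loci, and 1938.0 bases for Ensembl members, against 2141.0 bases for tested Ensembl loci. Shorter loci collect fewer reads at a given FPKM. The members' median abundance, 6.62 FPKM, was also lower than the 12.8 FPKM of all tested loci, so that length, abundance and kind cannot be told apart here.

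In limma's fit to log2(FPKM + 1) over all 13253 loci, 4 loci passed a Benjamini-Hochberg adjusted p under 0.05 with black-eyelid birds higher (0.0302% of those tested), and all 4 are among the 56. They are the loci at ranks 3, 5, 7 and 11, with limma adjusted p of 0.0246, 0.0145, 0.0246 and 0.0246. This says nothing further about the set, which was chosen on the same contrast. Toward light-yellow eyelids limma called 0 loci and voom 1. At an unadjusted limma p under 0.05 there were 344 of the 13253 loci in both directions together. That is a smaller share than the 0.05 that this threshold passes when no locus differs. Of the counts below from fits without 1 bird, only the 1223 is a larger share. In limma's voom fit to the recovered reads, 6 loci passed with black-eyelid birds higher (0.0453%), all of them members, the added ones being at ranks 12 and 20 with a voom adjusted p of 0.0399 each. All 4 limma calls depended on which and how many birds were used. They held without black-eyelid bird 1, where 9 loci passed and 1223 had an unadjusted p under 0.05, and were lost on leaving out any of the remaining 5 birds. A limma fit to 5 birds has less power at a given spread. In these fits the log2 difference stayed at 2.58 to 3.09 for ENSGALG00000014634 and at 2.52 to 2.68 for Novel02050. Without black-eyelid bird 2 limma called 1 locus, which is no member, with 250 at an unadjusted p under 0.05, and it called 0 without black-eyelid bird 3. Without light-yellow bird 1, 2 or 3 it called 0 each time, with 410, 245 and 296 loci at an unadjusted p under 0.05, against 204 without black-eyelid bird 3.

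Membership also depended on single birds, there through the size of the difference. Here a bird was left out of the difference and the gap, while the mean FPKM was still taken over all 6 birds. Of the 56 loci, 26 met the rule so applied whichever bird was left out. Without black-eyelid bird 3, 17 no longer met it, and without black-eyelid birds 1 and 2 it was 9 and 3. Without light-yellow birds 1, 2 and 3 it was 8, 5 and 8. With the mean fixed, a locus can leave the set only through its difference, since removing a bird cannot create an overlap. With the mean taken over the other 5 birds, a further 5 would leave without black-eyelid bird 1 and 1 without black-eyelid bird 3. Fewer birds also make it easier to have no overlap, and the rule was then met by 309, 115 and 60 loci without black-eyelid birds 1, 2 and 3 and by 125, 89 and 115 without light-yellow birds 1, 2 and 3.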

How the data were processed

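The authors deposited 1 table with an FPKM column per library, matched here to birds by the sample description, with 0 columns left over. Per the submitters' processing notes, they ran HTSeq 0.6.1, DESeq 1.18.0, TopHat and Cufflinks 2.1.1, their roles unstated. Genome build, annotation and strand setting were each not given in the sources used here. FPKM depends on the library total, so abundant loci can shift others. Rescaling by median of ratios moved the median log2 difference over tested loci to 0.011, against 0.065 unscaled.

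The members and lists were chosen with earlier results of these data known. Values were taken as log2(FPKM + 1), which understates the change of low loci, and fitted with limma 3.58.1 in R 4.3.3 (trend, two-sided, Benjamini-Hochberg over 13253 loci). Whole reads and locus lengths were recovered for 17221 loci as the smallest whole length giving whole reads in every library, and reads covered 99.5% to 99.6% of the library totals. Reads that share an undetected factor come out too low. They were fitted with limma's voom. A unit may be a read or a read pair, which no label states. Loci were named by a rule: with no gene symbols, the Ensembl and the non-Ensembl member with the widest gap between the colours. Gene lists for pigment, skin and other cell types could not be matched. Shapes of members (3-fold, 1.5-fold) were defined after seeing the data. Ratios of reads have exact binomial (Clopper-Pearson) intervals. Python 3.11.15 was used. The recovery and the fit were also run on simulated data, with outcomes not given here. The simulated reads came from the recovered lengths and totals, so an error shared with these could not show. The simulated fit left out loci with few reads and so does not cover such members.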

Additional observations from a re-analysis of the deposited data

How the results depend on the processing

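Against 56 members, the rule was met by 65 loci with a pseudocount of 0.5, 83 with 0.1 and 60 without the filter, each including all 56, and by 46 after median-of-ratios rescaling, 45 of them members. By construction it was met by 33 with a mean of at least 5 FPKM, 36 with a difference of at least 1 and 575 with no minimum difference. Leaving out 1 bird gave 60 to 309 loci, of which 39 to 53 were members. Against 4 loci called by limma, the same 4 passed with either pseudocount, median-of-ratios rescaling or no trend, and 3 without the filter, 2 of them among the 4. With a mean of at least 5 FPKM 0 passed (230 at an unadjusted limma p under 0.05). Ranks 5 and 7 fell below this filter, while ranks 3 and 11 were tested and missed the threshold at a limma adjusted p of 0.0502. Voom on recovered reads called 7, 4 of them shared, and leaving out 1 bird gave 0 to 9. Using bird numbers as a replicate block, limma called 0 loci (222 at an unadjusted p under 0.05). The labels do not say that the numbers pair the birds, and deviations from the colour mean correlated at -0.51, -0.06 and -0.23 between same-numbered birds. Over the alternatives the log2 difference was 2.58 to 3.36 for ENSGALG00000014634 and 2.52 to 4.84 for Novel02050, the highest values coming from voom. Their limma and voom adjusted p ran from 0.0179 to 0.239 and from 0.0134 to 0.166. Depth limits members with few reads, and gene names were lacking for every list.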
